A study of Mus musculus with 136 samples.

Results

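A set of 10 genes best known from pluripotent cells was followed through the earliest somite stages: the transcription factors Pou5f1, Nanog, Sall4 and Utf1, the chromatin protein Dppa4, the de novo DNA methyltransferases Dnmt3a and Dnmt3b, the RNA-binding proteins Lin28a and Lin28b, and the Nodal co-receptor Tdgf1. They were chosen by gene symbol, were all found in the count table, and are 10 of its 47643 genes. In mouse development the core pluripotency factors act in the inner cell mass and the epiblast and are switched off around gastrulation and early somitogenesis, and the last cells that keep them are the primordial germ cells. Dnmt3b, Sall4, Lin28a and Lin28b outlast the core factors, since tissues of the growing embryo also use them: Dnmt3b lays down new DNA methylation, Sall4 is a zinc finger repressor, and the Lin28 proteins block maturation of the let-7 microRNAs. In the extraembryonic tissues, Utf1 and Dppa4 are also known from trophoblast, the outer cell layer that builds the placenta.

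The libraries came from NOD mice, an inbred strain in which females become diabetic spontaneously through autoimmune loss of the insulin-producing cells. Concepti were collected 8.5 days after mating, the morning of the vaginal plug being counted as day 0.5. Diabetic dams gave 12 litters (33 concepti) and normal dams 10 litters (33 concepti), all on the same chow. Glucose at euthanasia was 105 to 164 mg/dl in normal dams. In diabetic dams the numbers given were 423 to 595 mg/dl, and 1 litter carried no number because its glucose was labelled above scale. Each conceptus gave 1 library of the embryo and 1 of its visceral yolk sac. Sequencing read the 3′ ends of messenger RNAs and counted unique molecular identifiers (UMIs), so a count stands for 1 captured molecule, and levels of different genes were not ranked against each other. The somite pairs counted in the embryo set the stage: 24 concepti had 5 pairs, 10 had 6, 11 had 7, 13 had 8 and 8 had 9, and the stage of a yolk sac is that of its embryo. In diabetic pregnancies these numbers were 13, 4, 4, 9 and 3, and in normal pregnancies 11, 6, 7, 4 and 5. The model is limited in that every embryo of a litter shares 1 dam, that diabetes cannot be told apart from other differences between the dams that became diabetic and those that did not, and that 1 diabetic litter (D24M15) supplied 9 concepti, of which 7 had 7 to 9 pairs.

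Total counts ranged from 1017901 to 5658850 per library with a median of 2302819. The sex genes of every library matched its own sex label, but in 2 of the 66 concepti the embryo and the yolk sac differed in sex, in the labels and in the genes alike, so that the somite number given to these yolk sacs is in doubt, and all results were also computed without both concepti. The tissue labels held in the markers: 10 visceral endoderm genes summed to 4580 to 18940 CPM (counts scaled to the library total) in yolk sacs and to 45 to 1572 in embryos, whereas 7 genes of the embryo proper summed to 139 to 544 CPM in embryos and to 0 to 27.1 in yolk sacs. Trophoblast genes (9 in all) summed to 11.1 to 918.5 CPM in yolk sacs and to 2.74 to 31.5 CPM in embryos. The sum of 2 decidual genes reached 324 CPM in a yolk sac from a diabetic pregnancy and no more than 12.8 in those from normal pregnancies. These 2 genes went opposite ways between the tissues. Prl8a2 stood at 14.1 CPM over all yolk sacs and 0.473 over all embryos, and Pgr at 0.453 and 3.73 CPM.

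Promoters of 8 of the 10 genes were found in RefSeq (mouse build GRCm38.p6). The 250 bases before the annotated start are shown for Nanog, the core factor whose counts faded over these stages, for Utf1, which was read mainly from the yolk sac, and for Dnmt3b, which declined in both tissues. Capitals mark matches, on either strand, to an octamer core TTTGCAT, the binding element of Oct4 (the protein of Pou5f1), a SOX core CATTGT, and a GC box GGGCGG, the element of Sp1 family proteins; a TATAAA box was searched as well.
Nanog promoter, chr6:122707239-122707488, plus strand: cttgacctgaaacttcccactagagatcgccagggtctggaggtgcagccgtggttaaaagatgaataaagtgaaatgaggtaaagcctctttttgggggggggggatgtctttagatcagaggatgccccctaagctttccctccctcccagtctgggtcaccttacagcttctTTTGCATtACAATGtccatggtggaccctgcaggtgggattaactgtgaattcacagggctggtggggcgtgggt
Utf1 promoter, chr7:139943606-139943855, plus strand: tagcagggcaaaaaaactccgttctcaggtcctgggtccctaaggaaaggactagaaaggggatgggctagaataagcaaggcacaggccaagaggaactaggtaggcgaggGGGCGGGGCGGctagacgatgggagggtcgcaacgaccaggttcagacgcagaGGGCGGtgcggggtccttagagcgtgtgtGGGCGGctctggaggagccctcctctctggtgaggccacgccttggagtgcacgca
Dnmt3b promoter, chr2:153649199-153649448, plus strand: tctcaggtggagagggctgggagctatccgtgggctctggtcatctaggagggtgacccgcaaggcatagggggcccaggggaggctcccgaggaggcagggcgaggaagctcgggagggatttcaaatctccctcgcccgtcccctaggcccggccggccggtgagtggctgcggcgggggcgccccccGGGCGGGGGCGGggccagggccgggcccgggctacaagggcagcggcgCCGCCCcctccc
Counting back from -1 at the base before the start, the Nanog window held the octamer core at -75 and the SOX core, on the other strand, at -67, separated by 1 base. The Utf1 window held 4 GC boxes at -138, -133, -85 and -56, the first pair overlapping by 1 base, and the Dnmt3b window held 3, at -60, -54 and -12. For Utf1 the RefSeq start lies downstream of the GENCODE start at 139943789, from which the gene position below is taken. The end of its window, to 139943855 and with the box at -56, therefore lies within the GENCODE gene. CG dinucleotides numbered 3 in the Nanog window, 14 in that of Utf1 and 21 in that of Dnmt3b, against a median of 6 over all promoters of this length. Among all 32851 such promoters, 4.12% held the octamer core, 10.7% the SOX core, 32.7% the GC box and 12.4% the TATAAA box, and none of the 3 windows shown held a TATAAA box. These matches describe the letters of the windows and nothing was read from them about binding.

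The core factors were close to the end of their range. Pou5f1 (chr17:35506018-35510772, plus strand), which encodes Oct4, gave 24 counts in all, spread over 18 of the 66 embryos, or 0.147 CPM over the summed libraries (exact Poisson 95% interval 0.0944 to 0.219). By somite pairs the Pou5f1 counts were 13 in 9 of 24 embryos at 5 pairs, 2 in 2 of 10 at 6, 7 in 5 of 11 at 7, 2 in 2 of 13 at 8 and 0 in all 8 embryos at 9 pairs, where 0 counts still allow up to 0.166 CPM (a limit of 3 counts over the summed libraries of that stage). No library held more than 2 counts of Pou5f1, so no order of the stages can be read. In yolk sacs Pou5f1 gave 2 counts in 2 of 66 libraries. An antisense gene, Gm19553, overlaps Pou5f1, and the sources used here do not give the strand setting of the counting. Intervals and limits of this kind cover counting error only.

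Nanog (chr6:122707489-122714633, plus strand), the homeobox factor of the naive epiblast, was still read in the youngest embryos. At 5 somite pairs 20 of 24 embryos held Nanog, with 61 counts or 1.003 CPM (exact Poisson 95% interval 0.767 to 1.29), and at 6 pairs 8 of 10 embryos held 16 counts, 0.507 CPM (0.290 to 0.823). At 7, 8 and 9 pairs Nanog was found in 3 of 11, 5 of 13 and 4 of 8 embryos, at 0.214 (0.0694 to 0.499), 0.310 (0.142 to 0.589) and 0.221 (0.0602 to 0.566) CPM. The level at 5 pairs therefore lay above the intervals of all 3 later stages, which overlap each other and that of 6 pairs. The counts went the same way under both conditions: embryos of 5 to 6 pairs gave 38 counts in 14 of 17 libraries from normal and 39 in 14 of 17 from diabetic pregnancies, and embryos of 7 to 9 pairs gave 11 in 7 of 16 and 7 in 5 of 16. Nanog did not pass the filter on low counts. When all genes with any count were tested, as an alternative, its slope in embryos was -0.59 on the log2 scale per additional somite pair (SE 0.13, adjusted p = 0.0017, edgeR quasi-likelihood test). In yolk sacs Nanog gave 33 counts in 23 of 66 libraries, 0.214 CPM (0.147 to 0.300). It gave 8 counts in 24 libraries at 5 pairs, 0.143 CPM (0.0618 to 0.282), and 10 in 11 libraries at 7 pairs, 0.411 CPM (0.197 to 0.756). Its slope in yolk sacs, from the same alternative and test, had the opposite sign and was not called (0.17, adjusted p = 0.47). In whole tissue, fewer cells of a type and less RNA per cell cannot be told apart, which holds for every level given here.

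The markers of primordial germ cells differed widely in level. Dppa3, the maternal and germ cell factor also called Stella, gave 76 counts in 39 of 66 embryos and 1 count in yolk sacs, and Prdm14, Nanos3 and Dppa5a gave 11, 6 and 6 counts in embryos. Dnd1, an RNA-binding protein of germ cells, was read more often, with 481 counts in 65 of 66 embryos (2.95 CPM). The summed level of the 10 genes of that list was 84.9 to 179 CPM in embryos, most of it from genes that other cells use too, Prdm1, Tfap2c, Ifitm3, Alpl and Kit, each at 16.8 to 29.2 CPM. Their part in the Nanog and Pou5f1 counts was not tested.

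The question put to the embryos was which of the genes changed from 5 to 9 somite pairs. It was asked by a slope, the log2 change per additional somite pair across all 66 embryos with maternal condition as a covariate, and a gene was called where the p adjusted over all genes tested (edgeR quasi-likelihood test, Benjamini-Hochberg) was below 0.05. Dnmt3b and Sall4 fell and none of the 6 tested genes was called as rising. Of the 10 genes 6 passed the filter on low counts and 2 were called, both lower, 2 of 6 against a background of 25.3% of all 11304 genes tested, 12.9% of them lower. The median slope of the 6 genes was -0.075, and that of all genes tested was -0.0021.

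Dnmt3b (chr2:153649450-153687730, plus strand) methylates DNA de novo in the epiblast and its derivatives, and its level is given in normalized counts, the counts divided by a size factor of the library. Across embryos of 5 somite pairs the lowest, median and highest Dnmt3b level was 349.8, 545 and 795 normalized counts (mean 539 ± 110, SD, n = 24), and across those of 9 pairs 310, 353 and 402 (353 ± 33.9, n = 8). Means at 6, 7 and 8 pairs were 427 ± 71.7, 439 ± 68.8 and 371 ± 56.1 (n = 10, 11 and 13), so that the ranges of the youngest and oldest embryos overlapped only between 349.8 and 402, and the neighbouring stages 6 and 7, and 8 and 9, differed by less than their SD. The slope of Dnmt3b was -0.15 (SE 0.022, 95% confidence interval -0.20 to -0.11, adjusted p = 2.61e-07). It was called within normal pregnancies alone (-0.13, adjusted p = 0.0183) and within diabetic pregnancies alone (-0.18, adjusted p = 5.35e-05), and lay between -0.16 and -0.15 when each of the 22 litters was left out in turn. An antisense gene, Dnmt3bos, overlaps the locus.

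Sall4 (chr2:168748332-168767943, minus strand) encodes a zinc finger factor of stem cells, limb buds and the caudal embryo. Its lowest, median and highest level was 361, 548 and 753 normalized counts at 5 pairs (548 ± 119, n = 24) and 363, 398 and 509 at 9 pairs (421 ± 52.6, n = 8), with means of 475, 544 and 431 between. The range at 9 pairs lay within that at 5 pairs, and the mean at 7 pairs was nearly as high as at 5. The slope of Sall4 was -0.091 (SE 0.023, 95% confidence interval -0.14 to -0.044, adjusted p = 0.00262). Compared as 2 classes, 5 to 6 against 7 to 9 pairs, the difference of Sall4 was -0.17 with an adjusted p of 0.0633, and within normal pregnancies alone its slope was -0.062 with an adjusted p of 0.285, against -0.12 and 0.00779 within diabetic pregnancies. Gm14261, a processed transcript on the other strand, overlaps Sall4.

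**Figure D1:**
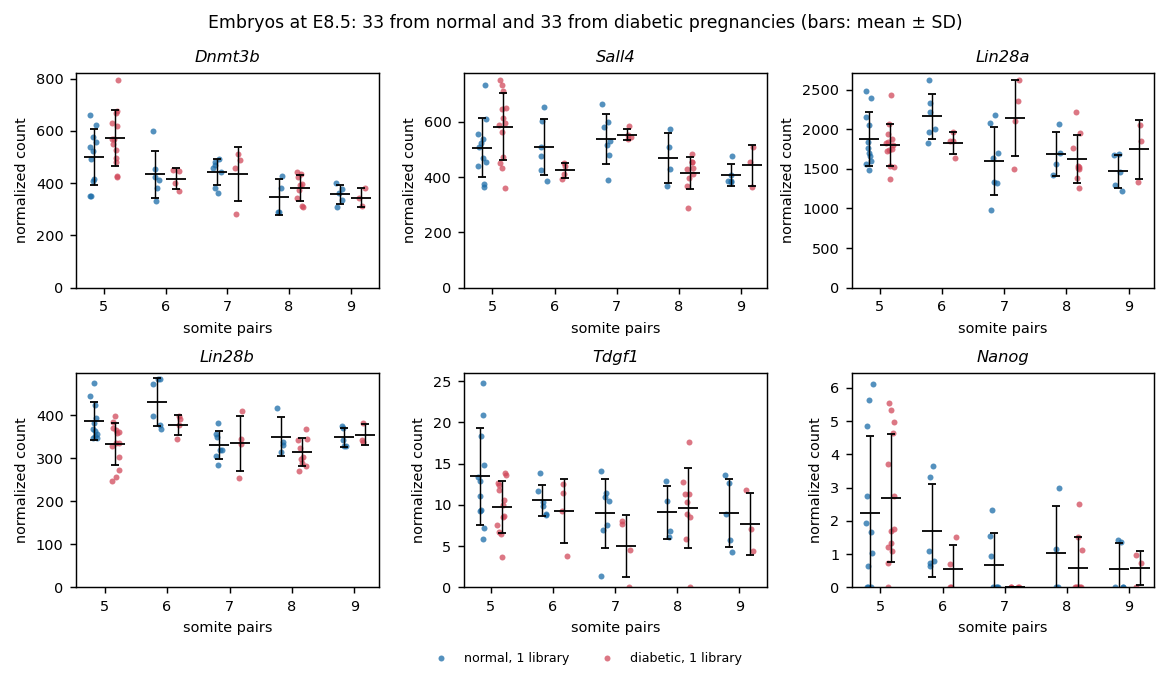
Levels of Dnmt3b, Sall4, Lin28a, Lin28b, Tdgf1 and Nanog in embryo libraries (normalized counts, vertical axis from 0) by the number of somite pairs (horizontal axis), with a point for each library coloured by maternal condition and bars for mean ± SD of each condition. Over both conditions Dnmt3b falls from a mean of 539 at 5 pairs to 353 at 9 pairs, and Nanog, which never exceeds 6.12, is at 0 in most embryos of 7 and 8 pairs.

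Lin28a (chr4:134003330-134018841, minus strand) and Lin28b (chr10:45376620-45486395, minus strand) did not pass the test in embryos. Lin28a, the let-7 blocker of pluripotent cells, ranged from 1375 to 2481 normalized counts at 5 pairs (median 1783) and from 1225 to 2059 at 9 pairs (median 1566), with its highest mean, 2028, at 6 pairs. Gm13061, a processed transcript on the other strand, overlaps Lin28a. The Lin28a slope of -0.060 (SE 0.024, 95% confidence interval -0.11 to -0.012) had an adjusted p of 0.0554. It was on the other side of the threshold with the DESeq2 Wald test (adjusted p = 0.041) or with litter as a random block (adjusted p = 0.016). Lin28a was also called with litter as a fixed term, between 2 somite classes, and without litter D28M02, D28M23 or N24M29. It was not called in the other settings, among them without the 2 concepti of differing sex (adjusted p = 0.107). Lin28b had means of 357, 410, 333, 325 and 351 normalized counts from 5 to 9 pairs and a slope of -0.032 (SE 0.017, adjusted p = 0.167). It was called (with Dnmt3b and Lin28a) only when the 2 classes of somite pairs were compared.

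Dnmt3a (chr12:3806007-3914443, plus strand), the methyltransferase that predominates later in development, stayed between means of 221 and 205 normalized counts, with a slope of -0.020 (SE 0.021, 95% confidence interval -0.062 to 0.021, adjusted p = 0.505). The antisense gene Dnmt3aos overlaps it. Tdgf1 (chr9:110939603-110946158, minus strand), also called Cripto, the co-receptor through which Nodal signals in the epiblast and early heart, was found in 64 of 66 embryos at 0 to 24.8 normalized counts, and its slope of -0.11 (SE 0.055, adjusted p = 0.146) did not pass the test. Utf1 and Dppa4 were near the floor in embryos, with 182 and 159 counts in 59 of 66 libraries each, and were not tested there. Utf1 stood at 1.25 CPM (exact Poisson 95% interval 0.985 to 1.56) in embryos of 5 pairs and 0.883 (0.505 to 1.43) in those of 9, and Dppa4 at 1.07 (0.825 to 1.36) and 0.939 (0.547 to 1.503), so that neither differed beyond counting error between the ends of the series.

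Other genes of the same pathways, from lists written beside the 10 genes, moved as follows in embryos, against the background of 12.9% of all genes tested that fell and 12.4% that rose. Of 12 tested genes of the pluripotency network, 3 fell and none rose, among them Foxd3 (-0.26) and Sox2 (-0.089), factors that the epiblast hands on to the neural and neural crest lineages, and the median slope of the list was -0.095. Of 6 tested partners of DNA methylation, Tet1 (-0.15) and Tet2 (-0.11), which oxidize methylcytosine, fell and Dnmt1 (0.082), which copies methylation after replication, rose. Of 11 tested genes of the Lin28 and let-7 axis only Tut4 (-0.14), which uridylates pre-let-7, was called. Of 12 tested genes of the tailbud and caudal epiblast 5 fell, with Cdx1 (-0.40), Nkx1-2 (-0.22), Sp5 (-0.21), Wnt3a (-0.15) and Cyp26a1 (-0.096), at a list median of -0.12, and in the same embryos 3 of 3 tested globin genes rose (Hbb-y by 1.44) and 4 of 7 genes of the embryo proper rose (Tcf15 by 0.26). Without litter D24M15 the calls of Tet1 (adjusted p = 0.0917), Tet2 (0.264), Wnt3a (0.116) and Cyp26a1 (0.195) were lost, and with litter as a random block those of Tet1 (0.0755) and Cyp26a1 (0.166).

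The genes whose levels followed those of Dnmt3b most closely over the 66 embryos were Sp5 (Spearman's rho 0.759), Rxrg (0.734) and Cdx1 (0.72), and for Sall4 they were Sp5 (0.711), Wnt3a (0.639) and Fam222a (0.635). Lin28a went with Naa60 (0.831), Dnmt3a with Chd4 (0.821), Lin28b with Rad21 (0.716) and Tdgf1 only loosely with Ephx2 (0.509). These are descriptions over libraries that share litters, depth and stage. The summed level of the 13 tailbud genes had medians of 554 and 476 CPM in normal embryos of 5 to 6 and 7 to 9 pairs, and of 640 and 459 CPM in diabetic ones (range over all embryos 125 to 920), and its part in the falls of Dnmt3b and Sall4 was not tested.

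In the visceral yolk sac Utf1, Dppa4, Dnmt3b and Lin28b fell with the somite number and none of the 7 tested genes was called as rising. Of 7 genes that passed the filter, 4 were called, all lower, against a background of 38.8% of 10857 genes tested, 18.1% of them lower. The median slope of the 7 genes was -0.11, and that of all genes tested was 0.00099.

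Dppa4 (chr16:48283733-48294237, plus strand), a chromatin-bound protein of pluripotent cells, showed the steepest slope of the tested genes. Its lowest, median and highest level was 5.87, 36.9 and 99.6 normalized counts at 5 pairs (43.7 ± 26.5, SD, n = 24) and 3.96, 6.73 and 29.2 at 9 pairs (10.8 ± 9.47, n = 8), with means of 26.9, 21.05 and 21.4 at 6, 7 and 8 pairs. The ranges overlapped at every stage, while 24 yolk sacs of 5 pairs had a median above that of each later stage. The slope was -0.43 (SE 0.075, 95% confidence interval -0.58 to -0.28, adjusted p = 5.94e-06). Within normal pregnancies alone it was -0.34 with an adjusted p of 0.0596, and within diabetic pregnancies alone -0.53 with an adjusted p of 1.72e-05.

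Utf1 (chr7:139943789-139945112, plus strand), a small transcriptional coactivator first described in undifferentiated stem cells, was the most uneven. At 5 pairs its lowest, median and highest level was 3.29, 16.7 and 106 normalized counts (25.8 ± 27.2, n = 24) and at 9 pairs 6.08, 10.7 and 15.8 (10.96 ± 3.09, n = 8). At 6 pairs the median was 6.15, below that of every other stage, so the levels did not step down evenly. The slope was -0.27 (SE 0.098, 95% confidence interval -0.46 to -0.069, adjusted p = 0.0263). This call was lost with litter as a random block (-0.077, adjusted p = 0.615), with litter as a fixed term (-0.13, adjusted p = 0.48), with sex as a covariate (-0.24, adjusted p = 0.0519), with 2 classes (-0.58 between classes, adjusted p = 0.102), and without litter D28M36, D28M53 or N24M29, where it was -0.21 with adjusted p of 0.0808, 0.0916 and 0.0838.

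Dnmt3b had the same direction as in the embryo. Its lowest, median and highest level was 262, 609 and 847 normalized counts at 5 pairs (608 ± 124, n = 24) and 336, 450 and 541 at 9 pairs (446 ± 75.5, n = 8), with means of 532, 493.4 and 460 between, each step smaller than the SD of either stage. The slope was -0.11 (SE 0.026, 95% confidence interval -0.17 to -0.062, adjusted p = 0.000391). Lin28b, the paralogue of Lin28a, fell from 84.2 ± 18.2 normalized counts at 5 pairs (45.7, 80.9 and 118 as lowest, median and highest, n = 24) to 62.7 ± 12.7 at 9 pairs (50.9, 59.0 and 84.4, n = 8), with a slope of -0.12 (SE 0.025, 95% confidence interval -0.17 to -0.069). The adjusted p of the Lin28b slope was 0.000102. Within normal pregnancies alone neither gene was called (Dnmt3b -0.075, adjusted p = 0.235, Lin28b -0.10, adjusted p = 0.0879), and both were within diabetic pregnancies alone.

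The other yolk sac genes gave no call. Lin28a had a slope of -0.027 (95% confidence interval -0.076 to 0.022, adjusted p = 0.402) around means of 1114 to 1350 normalized counts, and Sall4 of -0.027 (-0.091 to 0.037, adjusted p = 0.526) around means of 256 to 357. Dnmt3a had the opposite sign, 0.058 (SE 0.026, adjusted p = 0.0731), from a mean of 176 at 5 pairs to 202 at 9, and was called as higher with litter as a random block (0.067, adjusted p = 0.0317). Tdgf1 was found in 9 of 66 yolk sacs with 20 counts, 18 of them at 5 and 6 pairs, and did not pass the filter. When all genes with any count were tested, its slope was -0.57 with an adjusted p of 0.0137.

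**Figure D2:**
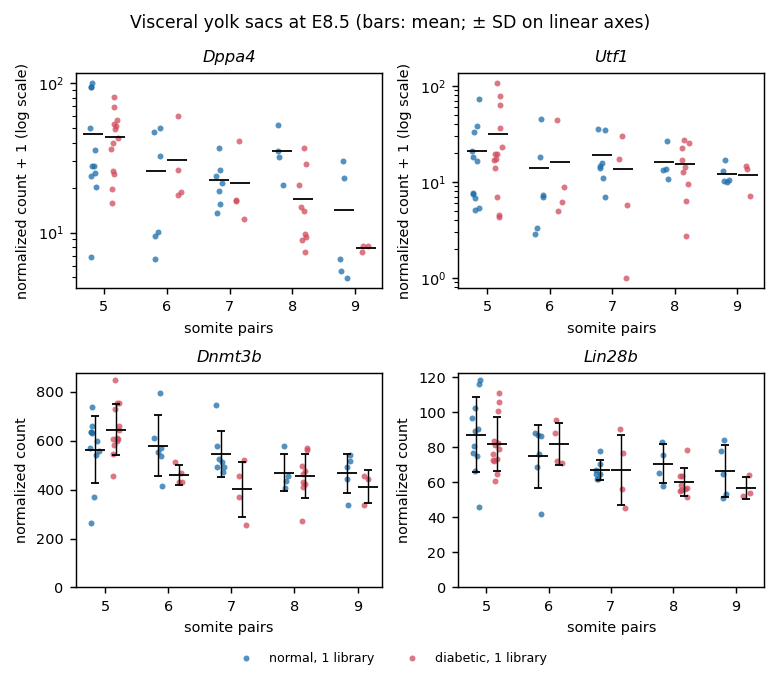
Levels in visceral yolk sac libraries by somite pairs, with a point for each library coloured by maternal condition: Dppa4 and Utf1 on a log axis of normalized counts + 1 with the mean of each condition as a line, Dnmt3b and Lin28b on a linear axis from 0 with mean ± SD of each condition. Over both conditions Dppa4 falls from a mean of 43.7 to 10.8 between 5 and 9 pairs, and the highest Utf1 libraries, up to 106, lie at 5 pairs.

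Utf1 and Dppa4 moved with the trophoblast genes of the same yolk sacs. The trophoblast sum had medians of 96.3 and 64.8 CPM in yolk sacs from normal pregnancies of 5 to 6 and 7 to 9 pairs (ranges 65.2 to 505 and 36.2 to 189). In those from diabetic pregnancies the medians were 185 and 77.5 CPM (11.1 to 918.5 and 11.8 to 482). Most of the sum came from Plac1 (64.2 CPM over all yolk sacs), Rhox6 (57.6), Ascl2 (17.6) and Rhox9 (14.8), and Elf5 stood at 2.71 CPM. Although 7 to 9 of the 9 genes were counted in each group, Prl3b1 and Tpbpa gave only 20 and 27 counts over all yolk sacs. Prl3d1 and Prl2c2, which mark giant cells, gave 7 and 15 counts and were at 0 in both normal groups. Correlations were taken on log2(CPM + 1), with CPM on library totals scaled by TMM for the genes and on plain library totals for the sum. Within each of the 4 groups of condition and stage the Pearson correlation of Utf1 with this sum was 0.698 to 0.835 and Spearman's rho 0.606 to 0.88 (permutation p at most 0.0035 for r and 0.016 for rho, Benjamini-Hochberg adjusted over 16 relations at most 0.00791 and 0.0278). For Dppa4 r was 0.625 to 0.765 and rho 0.62 to 0.875 (permutation p at most 0.0097 and 0.0092, adjusted at most 0.0193 and 0.0211). Without the 2 libraries farthest from the median sum, r was 0.658 to 0.84 for Utf1 and 0.479 to 0.923 for Dppa4. After subtracting litter means r was 0.109 to 0.799 for Utf1, lowest in normal yolk sacs of 5 to 6 pairs, and 0.555 to 0.802 for Dppa4, and littermates are not independent samples. For Dnmt3b and Lin28b no r passed (r -0.434 to 0.46, adjusted permutation p of r at least 0.111), and 1 rho did, that of Lin28b in normal yolk sacs of 7 to 9 pairs (-0.606, permutation p = 0.014, adjusted p = 0.0278).

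With the logarithm of the trophoblast sum as a covariate, an alternative chosen after seeing the data, the yolk sac slope of Utf1 was 0.083 (adjusted p = 0.389), that of Dppa4 -0.27 (adjusted p = 0.000425), that of Dnmt3b -0.099 (adjusted p = 0.00397) and that of Lin28b -0.14 (adjusted p = 8.15e-06). With this covariate the slope of Utf1 was positive and not called, and those of the other 3 stayed negative and called. Lin28a was called as well (-0.059, adjusted p = 0.0474). The median of the trophoblast sum was itself lower at 7 to 9 than at 5 to 6 pairs under both conditions. The part of the sum in these slopes was not tested.

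**Figure D3:**
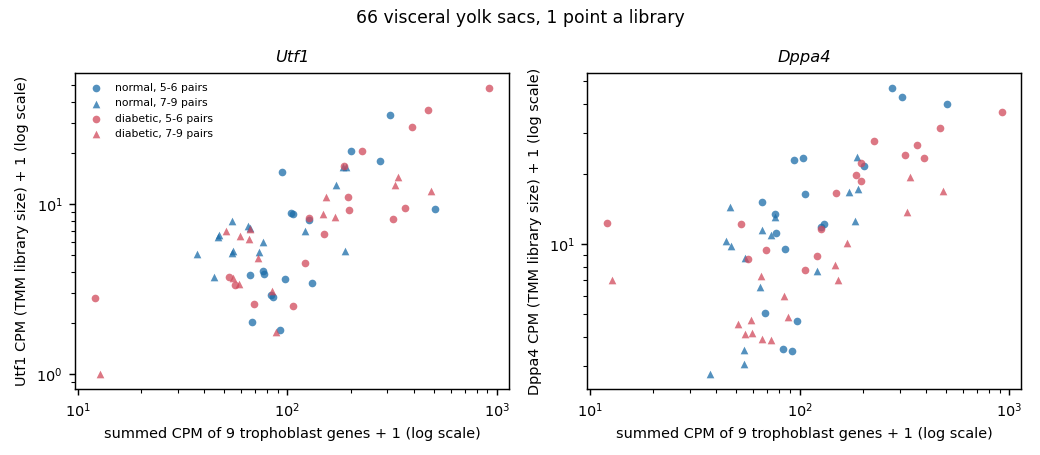
Utf1 and Dppa4 (CPM on library totals scaled by TMM, + 1, vertical log axes) against the summed CPM of 9 trophoblast genes (on plain library totals, + 1, horizontal log axis) in the 66 yolk sac libraries, coloured by maternal condition, with circles for 5 to 6 and triangles for 7 to 9 somite pairs. Both genes are higher in libraries with a higher trophoblast sum, which spans 11.1 to 918.5 CPM, and 2 yolk sacs from diabetic pregnancies stand apart at the low end, at 11.1 and 11.8 CPM.

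Among the genes that followed Utf1 most closely over the 66 yolk sacs, a list added after seeing the data, were Dnmt3l (rho 0.811) and Bmp8b (0.797), and for Dppa4 they were Lncenc1 (0.802), Fgfbp1 (0.782) and Dnmt3l (0.779). Dnmt3b went with Cbl (0.806) and Lin28b with Hnrnpll (0.646). Among the lists, read against 18.1% of all genes that fell and 20.7% that rose, 3 of 10 tested pluripotency genes fell in yolk sacs, Sox2 (-0.66), Eomes (-0.19), a trophoblast and primitive streak factor, and Tbx3 (-0.094), with a list median of 0.026. Of the 7 tested partners of DNA methylation 4 fell, Dnmt3l (-0.58), the catalytically inactive helper of the de novo enzymes, Tet3 (-0.18), Tet2 (-0.14) and Tet1 (-0.14). Of 11 tested genes of the Lin28 and let-7 axis 4 fell, Tut4 (-0.19), Igf2bp1 (-0.12), Hmga2 (-0.11) and Dicer1 (-0.086), the middle pair of them known let-7 targets. Of 5 tested germ cell markers Tfap2c (-0.74), also a trophoblast factor, and Kit (-0.18) fell, and 2 of 4 tested trophoblast genes fell, Ascl2 (-0.80) and Plac1 (-0.42). Over the same stages 8 of 10 visceral endoderm genes rose (Afp by 0.33), and 4 of 5 erythroid genes rose (Hbb-y by 0.65). With litter as a random block the calls of Dicer1 (adjusted p = 0.15) and Tfap2c (0.132) were lost.

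**Figure D4:**
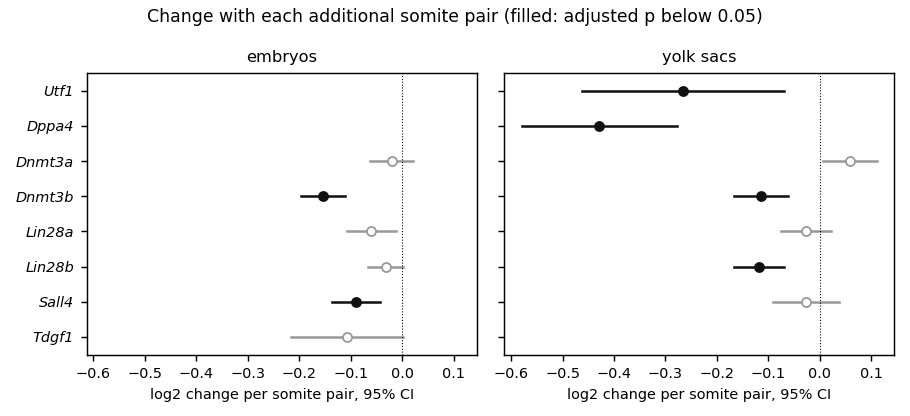
Slope of each tested gene in embryos and in yolk sacs (log2 change per additional somite pair, horizontal axis, with 95% confidence intervals), filled where the adjusted p was below 0.05. In embryos Dnmt3b (-0.15) and Sall4 (-0.091) are filled, and in yolk sacs Dppa4 (-0.43), Utf1 (-0.27), Lin28b (-0.12) and Dnmt3b (-0.11).

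Of the 10 genes, 8 passed the filter for a comparison of the tissues. The yolk sac was compared with the embryo over all 132 libraries. The fit held a mean for each group of tissue, maternal condition and somite class. In this comparison 7 of 8 tested genes were called, 4 lower and 3 higher in the yolk sac. The background was 86.2% of 12183 genes tested, 45% lower and 41.2% higher. A difference between these tissues was thus the rule for any gene. Dppa4 was higher in the yolk sac by 3.72 on the log2 scale (SE 0.18, adjusted p = 3.95e-42), at 13.3 CPM against 0.976 in embryos, and Utf1 by 2.98 (SE 0.21, adjusted p = 8.63e-28), at 8.67 against 1.12 CPM. Dnmt3b was higher by 0.47 (SE 0.051, adjusted p = 2.06e-15), at 239 against 193 CPM. Tdgf1 was lower in the yolk sac, at 0.130 against 4.37 CPM, with a fitted log2 difference of -4.76 (SE 0.23, adjusted p = 3.91e-40). Lin28b was lower (-2.05, SE 0.043, adjusted p = 3.53e-83), at 33.4 against 154 CPM, while its paralogue Lin28a was lower by less (-0.34, SE 0.049, adjusted p = 3.21e-10), at 544 against 771 CPM. Sall4 was lower too (-0.50, SE 0.058, adjusted p = 3.84e-14), at 133 against 214 CPM. Dnmt3a stood at 87.2 against 91.9 CPM, lower in the yolk sac. The fit, which scales libraries otherwise than CPM, gave a difference of opposite sign that did not pass (0.089, SE 0.049, adjusted p = 0.081). Without litter D24M15 the fit called Dnmt3a as higher (0.12, adjusted p = 0.0368). Since CPM and fit differ in sign, no direction is read for Dnmt3a. Utf1, Dppa4 and Tdgf1 passed the filter on low counts only through the tissue in which they were high, so that for them a difference was built in. The trophoblast sums given above differed between the tissues in the same direction as Utf1 and Dppa4, and their part in it was not tested.

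Whether the slopes themselves differed between the tissues was tested in the same libraries, and no gene of the 10 was called among 8 tested, against a background of 3.96% of 12183 genes, with 4 of the 8 at an unadjusted p below 0.05. The difference of slopes, yolk sac minus embryo, was -0.39 for Dppa4 (SE 0.14, 95% confidence interval -0.68 to -0.11, adjusted p = 0.0983), -0.086 for Lin28b (SE 0.030, adjusted p = 0.0765), -0.46 for Tdgf1 (SE 0.18, adjusted p = 0.116) and 0.078 for Dnmt3a (SE 0.034, adjusted p = 0.182). Dppa4 passed the threshold with the DESeq2 Wald test (adjusted p = 0.0475) and with each conceptus as a replicate block (-0.37, adjusted p = 0.0495), and Tdgf1 without the 2 concepti of differing sex (-0.64, adjusted p = 0.0342). Dppa4 and Utf1, with 159 and 182 counts over all embryos, and Tdgf1, with 20 over all yolk sacs, passed the filter through a single tissue, so 1 of the slopes behind each of their differences rests on a few counts a library or none, and nothing is read from these values. For Dnmt3b, which fell in both tissues, the difference was 0.040 with a 95% confidence interval of -0.026 to 0.11, and for Sall4, called in embryos only, it was 0.064 with an interval of -0.014 to 0.14 and an adjusted p of 0.395, so that the slopes of Sall4 were not shown to differ.

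Maternal diabetes was compared with normal pregnancy separately in embryos and yolk sacs of 5 to 6 and of 7 to 9 somite pairs, 16 or 17 libraries to a group. None of the 10 genes was called in any of the 4 comparisons by the edgeR test. In embryos of 5 to 6 pairs 0 of 6 tested genes were called against a background of 1.46% of 11004 genes, and in embryos of 7 to 9 pairs 0 of 5 against 9.09% of 10628. In yolk sacs of 5 to 6 pairs it was 0 of 7 against 0% of 10250 genes, with 863 genes at an unadjusted p below 0.05, and in yolk sacs of 7 to 9 pairs 0 of 7 against 0.0194% of 10317, that is 2 genes. At an unadjusted p below 0.05 only 1 of the tested genes stood in embryos of 5 to 6 pairs, Lin28b, and none in the other 3 comparisons, and the DESeq2 Wald test called 1, 0, 0 and 0.

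Lin28b in embryos of 5 to 6 pairs came nearest. Its lowest, median and highest level was 347, 382 and 485 normalized counts in normal (403 ± 51.2, SD, n = 17) and 247, 358 and 399.5 in diabetic pregnancies (343 ± 47.9, n = 17), with ranges that overlapped between 347 and 399.5. The difference, diabetic minus normal, was -0.23 on the log2 scale (SE 0.072, 95% confidence interval -0.38 to -0.088, adjusted p = 0.0773). It was called with the DESeq2 Wald test (adjusted p = 0.0409) and without litter N24M21 (adjusted p = 0.0487), and the adjusted p was 0.201 with litter as a random block and 0.35 on counts summed per litter. In embryos of 7 to 9 pairs the same gene stood at medians of 336 in both conditions (-0.070, 95% confidence interval -0.20 to 0.059, adjusted p = 0.492).

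The other differences were small or wide. In embryos of 5 to 6 pairs Dnmt3b had medians of 453 in normal and 527 in diabetic pregnancies (0.17, 95% confidence interval -0.043 to 0.37, adjusted p = 0.353), Sall4 of 508 and 564 (0.10, -0.11 to 0.31, adjusted p = 0.61) and Tdgf1 of 11.04 and 9.98 normalized counts (-0.36, -0.72 to 0.0035, adjusted p = 0.242). In embryos of 7 to 9 pairs Dnmt3b had medians of 383 and 387 (-0.018, -0.20 to 0.16), and Dnmt3a, the gene with the lowest p there, of 200 and 221 (0.13, -0.00035 to 0.27, adjusted p = 0.183). In yolk sacs of 5 to 6 pairs Utf1 had medians of 6.58 in normal and 16.2 in diabetic pregnancies, with ranges of 1.88 to 72.5 and 3.29 to 106 (0.60, -0.32 to 1.52, adjusted p = 0.726), and Dppa4 medians of 26.9 and 38.7 (0.067, -0.56 to 0.69, adjusted p = 0.969). In yolk sacs of 7 to 9 pairs Dppa4 had medians of 21.2 and 12.2 (-0.51, -1.09 to 0.077, adjusted p = 0.535) and Dnmt3b of 493.2 and 449 (-0.20, -0.41 to 0.0022, adjusted p = 0.465). The intervals leave room for more than 1 log2 unit upward for Utf1 at 5 to 6 pairs and downward for Dppa4 at 7 to 9 pairs, so that no difference was detectable at this spread, which does not show that the groups were alike.

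**Figure D5:**
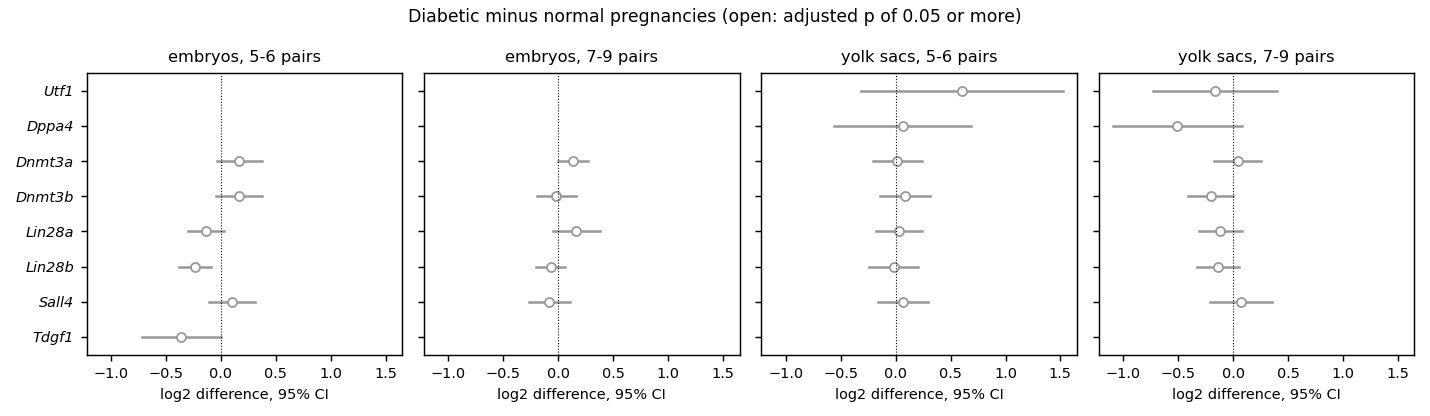
Difference between diabetic and normal pregnancies (log2, diabetic minus normal, horizontal axis, with 95% confidence intervals) of each tested gene in embryos and yolk sacs of 5 to 6 and 7 to 9 somite pairs. All symbols are open, since no adjusted p was below 0.05, and Lin28b in embryos of 5 to 6 pairs (-0.23) is the interval farthest from 0 for its width.

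Pathway genes beyond the 10 were called under maternal diabetes in embryos of 7 to 9 pairs. There the methylcytosine oxidase Tet3 was lower (-0.40 on the log2 scale, adjusted p = 0.0424), as were the germ cell markers Alpl (-0.51) and Kit (-0.43), and Ifitm3, an interferon-induced membrane protein of early germ cells and other tissues, was higher (0.52). That made 1 of 6 tested partners of DNA methylation, 0 of 11 genes of the Lin28 axis 1 of 11 other genes of the pluripotency network and 3 of 5 germ cell markers, against the background of 9.09% of all genes, and in the other 3 comparisons of diabetic with normal pregnancies none of these genes was called. With litter as a random block Ifitm3 was the only one of the 4 named genes still called (adjusted p = 0.0369), on counts summed per litter none was (adjusted p = 0.115 to 0.196), Kit was not called without litter D24M15 (adjusted p = 0.0971), and Kit and Tet3 were not without the 2 concepti of differing sex (0.0823 and 0.0735). Over all genes the 966 calls became 314 with the random block and 8 on the sums. The difference of slopes between the conditions in embryos passed for Tet3 (-0.25), Kit (-0.24) and Ifitm3 (0.24), but for none of them without litter D24M15 (adjusted p = 0.095 to 0.141), where no gene of 11587 was called, or without the 2 concepti (0.0638 to 0.0912), where 25 genes were, in place of 205.

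The slope with somite number did not differ detectably between normal and diabetic pregnancies in any of the 10 genes. None of 6 tested genes was called in embryos, against a background of 1.81% of 11304 genes, nor any of 7 in yolk sacs, against 0% of 10857 genes (662 of which had an unadjusted p below 0.05), none of the 10 genes reached an unadjusted p of 0.05, and DESeq2 called none either. The difference of slopes, diabetic minus normal, was -0.053 for Dnmt3b (95% confidence interval -0.14 to 0.032) and -0.056 for Sall4 (-0.15 to 0.037) in embryos, and -0.087 for Dnmt3b (-0.19 to 0.016), -0.19 for Dppa4 (-0.49 to 0.11) and -0.20 for Utf1 (-0.60 to 0.19) in yolk sacs. The calls within diabetic and not within normal yolk sacs given above are therefore not shown to be a difference between the conditions.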

How the data were processed

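Each of 66 concepti gave an embryo and a visceral yolk sac library (132 in all). Lexogen QuantSeq 3′ libraries with UMIs were sequenced on a NextSeq. According to the labels and design text, the authors aligned reads to mm10 with STAR, collapsed UMIs with collapse_UMI_Bam and counted genes with HTSeq, versions not given in the sources used here, and deposited raw UMI counts per gene. The handling of multi-mapping reads and of strand is also not given, which bears on Nanog and Pou5f1, since the mouse genome holds pseudogene copies of both. Another 4 technical duplicates were left out.

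Groups came from the sample labels, and a yolk sac took the somite number of the embryo of the same conceptus by title. Counts were tested with edgeR 4.0.16 in R 4.3.3 (quasi-likelihood test, TMM, filterByExpr with a minimum count of 10, Benjamini-Hochberg over all genes tested, threshold 0.05). Alternatives were DESeq2 1.42.0, other scaling and filters, litter as a fixed term or as a random block (limma 3.58.1), counts summed per litter, 2 somite classes, and each litter left out. The trophoblast covariate, the fits without the 2 concepti of differing sex and the alternative fits of the list genes were chosen after seeing the data. Levels are counts divided by DESeq2 size factors within a tissue. Correlations used 100000 permutations. Gene positions are from GENCODE M21 on GRCm38, which is mm10. The scripts were tested on simulated data. The 10 genes and the lists beside them were chosen with earlier results of these data known, and the genes named are all 10, called genes of the lists, and genes among the 3 of highest rho with each tested gene, and some items that these rules name are not reported here. Since littermates share a dam (the correlation within litters estimated by limma was 0.0677 to 0.251), p-values that treat concepti as independent can be too small.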

Additional observations from a re-analysis of the deposited data

Results flagged for a closer look

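For each of the 10 genes with enough counts, the highest and the lowest library of each group of 4 to 10 libraries with the same tissue, maternal condition and somite number were compared with the rest of that group by Dixon's test, 91 tests in all, of which 10 passed. Chance alone flags about 1 in 20 groups. Among yolk sacs Utf1 had a high library in 3 groups: 43.4 normalized counts against a next highest of 7.83 at 6 somite pairs in diabetic pregnancies, 43.9 against 17.2 at 6 pairs in normal pregnancies, and 25.9 against 12.5 at 8 pairs in normal pregnancies. Dppa4 had 40.0 against 15.6 at 7 pairs in diabetic pregnancies. Dnmt3a had 461.5 against 208 at 7 pairs in diabetic yolk sacs, and a lowest library of 142 against 189 at 7 pairs in normal ones. Dnmt3b had 747 against 579 at 7 pairs in normal yolk sacs, and Lin28b 78.5 against 63.8 at 8 pairs in diabetic ones. Among embryos Dnmt3a had 241 against 200 and Sall4 had 477 against 407, both at 9 pairs in normal pregnancies and in concepti of different litters.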

How the results depend on the processing

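Of 216 counts of called genes among the 10 under an alternative, 206 stayed within 1.5 times the main count and 10 did not. The embryo slopes gave 1 call within normal pregnancies, the yolk sac slopes 0 within normal pregnancies, and the comparison of diabetic with normal embryos of 5 to 6 pairs gave 1 with DESeq2 and 0 to 1 when each litter was left out (Lin28b, without N24M21). The tissue comparison gave 4, 4 and 4 calls, and 5 in diabetic pregnancies of 5 to 6 pairs, when made within each condition and stage in place of 7. The slope by tissue gave 1 with DESeq2, 1 with conceptus as a replicate block and 1 without the 2 concepti of differing sex, in place of 0. The causes were not tested, beyond the smaller number of libraries within a condition. The 216 compare numbers of calls only, so that 0 against 0 is included as unchanged and the genes called can differ. Embryo slopes between 2 classes, for example, are among the 206 but called Dnmt3b, Lin28a and Lin28b and not Sall4. Of 1400 values of single genes, 1314 kept direction and call, 31 changed their call and 55 changed sign. The Utf1 slope in yolk sacs, 0.083 with the trophoblast sum as covariate, was the only one of these called in the main setting, and none was called after the change. With that covariate the diabetic difference in yolk sacs of 5 to 6 pairs was also -0.16 for Utf1, -0.11 for Dppa4 and 0.013 for Lin28b. On counts summed per litter it was -0.018 for Sall4, and at 7 to 9 pairs -0.035 for Dnmt3a and -0.033 for Sall4. With a litter left out, the diabetic difference in embryos of 7 to 9 pairs was -0.067 to 0.025 for Dnmt3b and -0.097 to 0.0091 for Lin28b. In yolk sacs of 5 to 6 pairs it was -0.21 to 0.43 for Dppa4, -0.052 to 0.086 for Dnmt3a, -0.047 to 0.13 for Dnmt3b, -0.049 to 0.088 for Lin28a, -0.13 to 0.036 for Lin28b and -0.034 to 0.11 for Sall4, and at 7 to 9 pairs -0.056 to 0.14 for Dnmt3a and -0.031 to 0.13 for Sall4. The yolk sac slope was 0.017 for Lin28a with litter as a fixed term and 0.029 for Sall4 between 2 classes. The slope by condition of Dnmt3a in embryos was -0.0026 with DESeq2, -0.0019 with its size factors, -0.0069 with the title number, -0.0083 without D24M15, -0.022 between 2 classes and -0.012 without the 2 concepti. In yolk sacs it was 0.0050, 0.025 and 0.026 for Dnmt3a with the title number, without D24M15 and between classes, -0.012, -0.0079 and -0.00052 for Sall4 in the same order and -0.014 with litter as a random block, and 0.034 for Lin28a without D24M15. The tissue difference of Dnmt3a was -0.053 in diabetic pregnancies of 5 to 6 pairs, and the slope by tissue of Tdgf1 0.015 with the random block. The pairing of embryo and yolk sac is by conceptus, and this replicate block called the same 7 genes between the tissues and changed no other call than that of Dppa4. Without the 2 concepti of differing sex both slopes called the same genes. Under another scaling (CPM on TMM library sizes, which is another unit, or size factors over both tissues) 105 of 160 mean levels stayed within 1 SD.

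Counts over all genes depended more on the setting. Embryo slopes called 1638 to 3367 genes under other settings and 372 to 2790 within a condition in place of 2858, and yolk sac slopes 2461 to 4759 and 727 to 3369 in place of 4212. Diabetic against normal embryos called 0 to 397 at 5 to 6 pairs (4 to 675 with a litter left out, 161 in the main setting) and 8 to 1714 at 7 to 9 pairs (501 to 1067, 966), and yolk sacs 0 to 1 and 0 to 25. Slope by condition called 0 to 1251 in embryos, in place of 205, and 0 in yolk sacs, the tissue comparison 9337 to 16168 in place of 10502, and slope by tissue 317 to 681 in place of 483. Depth limits Pou5f1, Nanog, and Utf1 and Dppa4 in embryos, where most libraries held a few counts or none.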
